A study of Danio rerio with 6 samples.

Results

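Immediate early genes are the subject here, and the 10 chosen are fosab, fosb, junba, junbb, egr1, egr2a, egr3, atf3, ier2b and dusp1, matched by symbol to the deposited table of 21860 genes. Of the 10 symbols, 8 were in the table, on 9 rows, since fosab stands on 2 rows with different Ensembl identifiers, and egr2a and ier2b were not listed as symbols. The 9 rows are the members below, and all 9 reached 1 unit of signal in 2 or more libraries and were tested. The choice did not use their values, but it was made with earlier results of these data known. A row whose symbol cell is blank, ENSDARG00000086881, is paired with ier2b in the gene name reference and is given on its own.

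These genes are switched on within minutes of a stimulus, from factors and kinases that a cell already holds. Signals that reach the kinase ERK and its relatives turn on the FOS, JUN and ATF3 proteins, which pair as the AP-1 transcription factor, and the EGR zinc finger factors. Feedback genes such as dusp1, a phosphatase that inactivates these kinases, rise with them. In macrophages and microglia they follow growth factor, cytokine and danger signals, and they are also known to rise while brain tissue is taken apart into single cells.

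The cells were sorted for green fluorescence from brains of mpeg1-GFP zebrafish, in which a macrophage promoter drives the reporter, so that sorted cells can include macrophages other than microglia. The control fish were wild type for the receptors, the csf1ra-/- fish lacked csf1ra by genotype, while fish of genotype csf1ra-/-;b+/- (hereafter compound mutants) had 1 mutant csf1rb copy besides. The description field and the column names of these libraries can be read as a mutation of both genes without a normal csf1rb copy, a doubt that bears on every compound mutant value; the groups are named by the genotype field. These 2 receptors of zebrafish bind colony-stimulating factor 1 and interleukin 34. All fish were 9 to 12 months old, of strain TLF x AB, and carried the reporter, and all brains spent 2 hours in trypsin on ice before Percoll and sorting. Each group has 2 libraries, and the labels do not say how many fish went into one or whether the 2 came from separate fish, so the spread behind each p-value is that of these samples and may be technical.

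Reads over all genes ran from 4241988 to 15011963 per library, lowest in control library 1 and highest in the compound mutants. Genes with any read were nonetheless fewest in the compound mutants, at 18383 and 18047. They numbered 21452 and 20723 for the controls and 20971 and 20119 for the csf1ra-/- libraries. Signal, headed CPM in the table, is the read number divided by a library size that the authors had scaled, and this size was 1.73 times the total reads in control library 1 and 0.802 to 1.07 times in the others. Values of different genes are not compared in level, since lengths were not used. The mutated receptor gene csf1ra had a signal of 37.7 and 67.9 for the controls, 42.6 and 24.3 for the csf1ra-/- libraries and 18.5 and 7.73 for the compound mutants. In the same order csf1rb stood at 901 and 1356, at 1432 and 783, and at 329 and 173. The microglia and macrophage markers had reads in every library, with 1 of 19 genes at 0 in 1 compound mutant library (mpeg1.2), and their summed signal was 25061 and 50150 for the controls, 29173 and 24067 for the csf1ra-/- libraries and 46982 and 55327 for the compound mutants. Of these sums cd74a alone gave 14409 and 28764, 17930 and 15911, and 28192 and 35939, in the same order. Single markers went both ways. Lower in both compound mutant libraries than in both controls were csf1ra, csf1rb, p2ry12, havcr1, mafba, c1qb and mpeg1.2. Higher there were mpeg1.1, slc7a7, spi1b, lcp1, coro1a, ptprc and ctss2.1. In such sorted bulk samples, fewer cells of a type and less RNA per cell cannot be told apart.

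**Figure D1:**
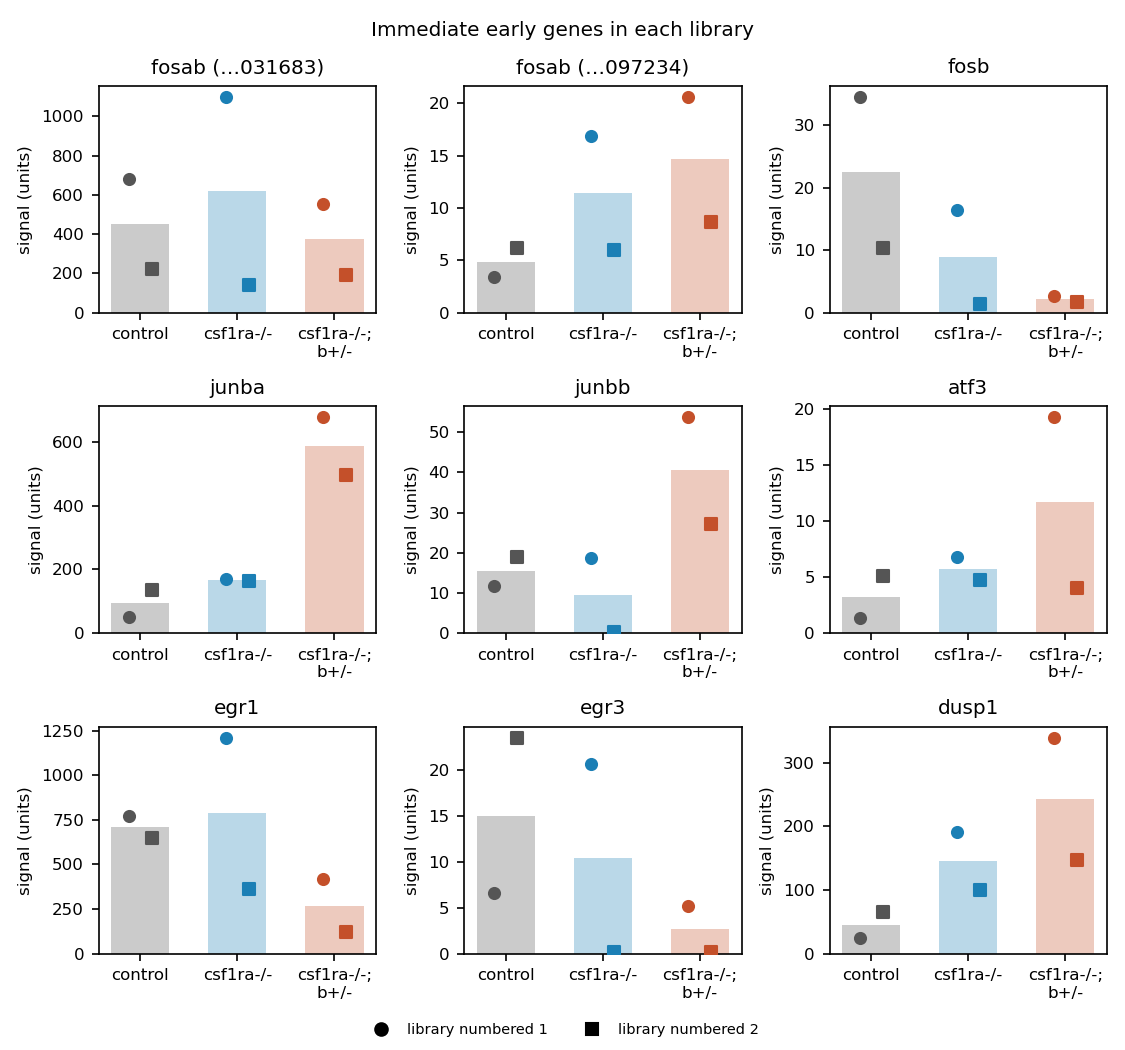
Signal (units, linear axes from 0) of the 9 members in each of the 6 libraries, with circles and squares for the libraries numbered 1 and 2 of a group and bars for the mean of 2. The junba values of both compound mutant libraries, 679 and 497, lie above the other 4 libraries, while egr1 and fosb are lowest there or in csf1ra-/- library 2.

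Among the JUN genes, junba was the one member past the test. The gene encodes JunB, an AP-1 subunit that pairs with FOS proteins. Its signal was 51.8 and 136 for the controls, 171 and 162 for the csf1ra-/- libraries and 679 and 497 for the compound mutants. Both compound mutant libraries were above all others, both csf1ra-/- libraries were above both controls, and no groups overlapped. The rise in compound mutants from control was 2.77 ± 0.56 (log2 difference of signal plus 1, SE, n = 2 per group; limma adjusted p = 0.0496). That p lies just under the threshold of 0.05. The adjusted p ranged from 5.14e-04 to 0.0530 over 10 other settings, edgeR and DESeq2 among them, 7 of which passed, and from 0.102 to 0.209 with 1 library left out, where none of 6 passed. The difference itself stayed between 2.06, the value on total reads and close to that without control library 1 (2.09), and 3.46, the value without control library 2. In csf1ra-/- against control it was 0.98 ± 0.56 (limma adjusted p = 0.592), and in compound mutants against csf1ra-/- 1.79 ± 0.56 (limma adjusted p = 0.283). The authors' deposited table gives junba a log2 fold change of 2.65 between compound mutants and control (false discovery rate 0.00119) and of 1.82 between compound mutants and csf1ra-/- (false discovery rate 0.0417).

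The summed signal of 9 oligodendrocyte lineage markers was also highest in the compound mutants, at 2720 and 4356, against 326 and 387 in control and 378 and 252 in csf1ra-/-. None of the 9 was at 0 in the compound mutants. Its part in the junba values was not tested.

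The paralog junbb had far fewer reads. It stood at 11.7 and 19.0 for the controls, at 18.7 and 0.157 for the csf1ra-/- libraries and at 53.7 and 27.3 for the compound mutants. The low csf1ra-/- value rests on 1 read, beside 160 reads in the other csf1ra-/- library, so this group spans nearly the whole range. Compound mutants were above all 4 other libraries, with a log2 difference of 1.30 ± 1.17 from control (SE, n = 2 per group; limma adjusted p = 0.491). Against csf1ra-/- the difference was 3.04 ± 1.17 (limma adjusted p = 0.338), and it fell to 1.00 without csf1ra-/- library 2.

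The FOS genes had other patterns than junba. The better annotated fosab row (ENSDARG00000031683), zebrafish c-Fos, stood at 680 and 221 for the controls, at 1099 and 139 for the csf1ra-/- libraries and at 553 and 193 for the compound mutants. The 3 groups overlapped, with 1 high and 1 low library in each. Its log2 differences were 0.01 ± 0.94 in csf1ra-/- and -0.24 ± 0.94 in compound mutants, both from control (SE, n = 2 per group; limma adjusted p = 0.998 and 0.887). On total reads and with median-ratio scaling the first of these turned to -0.51 and -0.16. The other fosab row (ENSDARG00000097234), for which the table gives no description, stood at 3.40 and 6.17 for the controls, at 16.8 and 5.96 for the csf1ra-/- libraries and at 20.6 and 8.66 for the compound mutants. Reads could be split between the 2 rows, so the values of each are uncertain, and its differences of 0.99 and 1.36 from control did not pass (limma adjusted p = 0.749 and 0.327).

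For fosb, which encodes a second FOS partner of JUN proteins, the values were 34.5 and 10.4 for the controls, 16.5 and 1.41 for the csf1ra-/- libraries and 2.59 and 1.75 for the compound mutants. Both compound mutant libraries lay below both controls, on 32 and 19 reads against 254 and 84. The log2 difference from control was -2.68 ± 1.07 (SE, n = 2 per group; limma adjusted p = 0.149), and in csf1ra-/- it was -1.63 ± 1.07 (limma adjusted p = 0.653). DESeq2 on the recovered reads called fosb lower in compound mutants (-3.67, adjusted p = 0.0145), and so does the authors' deposited table (log2 fold change -3.36, false discovery rate 0.0443). Limma and edgeR did not (edgeR -3.62, adjusted p = 0.121).

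The gene atf3 encodes a stress-induced partner of JUN proteins. It stood at 1.36 and 5.06 for the controls, at 6.78 and 4.70 for the csf1ra-/- libraries and at 19.3 and 4.05 for the compound mutants. Only compound mutant library 1 stood apart, and the 3 groups overlapped. The differences from control were 0.82 ± 0.96 in csf1ra-/- and 1.42 ± 0.96 in compound mutants (log2, SE, n = 2 per group; limma adjusted p = 0.820 and 0.358).

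Of the EGR factors, egr1 stood at 774 and 647 for the controls, at 1211 and 362 for the csf1ra-/- libraries and at 419 and 119 for the compound mutants. The controls lay above both compound mutants and between the 2 csf1ra-/- libraries. In compound mutants the log2 difference from control was -1.66 ± 0.72 (SE, n = 2 per group; limma adjusted p = 0.174), and no setting of 16 passed (adjusted p from 0.0768 to 0.624). In csf1ra-/- it was -0.09 ± 0.72 (limma adjusted p = 0.980). Its relative egr3 stood at 6.53 and 23.5 for the controls, at 20.6 and 0.157 for the csf1ra-/- libraries and at 5.18 and 0.184 for the compound mutants. The low values rest on 1 and 2 reads, against 176 and 64 in the other library of those groups, and the differences from control, -1.44 ± 1.39 and -2.33 ± 1.39, did not pass (limma adjusted p = 0.777 and 0.303).

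Neurons also express these factors. The summed signal of 13 neuronal markers was 62.0 and 88.3 for the controls, 37.4 and 44.7 for the csf1ra-/- libraries and 13.3 and 88.9 for the compound mutants. In compound mutant library 2, which had the lowest egr1, map2 gave 33.8 and snap25b 13.7 of the sum. In compound mutant library 1, 3 of the 13 were at 0 (slc17a6b, slc17a7a and nefma). In the other compound mutant library 2 were at 0 (slc17a7a and nefma). The part of neuronal RNA in the EGR values was not tested.

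The feedback phosphatase gene dusp1 stood at 23.9 and 65.0 for the controls, at 191 and 99.4 for the csf1ra-/- libraries and at 339 and 147 for the compound mutants. All 4 mutant libraries were above both controls. The log2 difference from control was 2.47 ± 0.66 in compound mutants (SE, n = 2 per group; limma adjusted p = 0.0785) and 1.77 ± 0.66 in csf1ra-/- (limma adjusted p = 0.422). The first passed in 2 of 16 other settings, DESeq2 (adjusted p = 0.00810) and the minimum of 50 reads, and in the authors' deposited table (2.45, false discovery rate 0.00701). Between the mutant groups, which overlapped, the difference was 0.70 ± 0.66 (limma adjusted p = 0.651). The ier2b row (ENSDARG00000086881), a nuclear immediate early response protein, had a like order, at 8.30 and 32.0 for the controls, at 97.6 and 43.4 for the csf1ra-/- libraries and at 108 and 34.0 for the compound mutants. Its differences from control were 1.92 ± 0.81 in csf1ra-/- and 1.82 ± 0.81 in compound mutants (log2, SE, n = 2 per group; limma adjusted p = 0.462 and 0.182). The margin between 34.0 in compound mutant library 2 and 32.0 in control library 2 was narrow. On total reads control library 2 was the higher of these for ier2b, so that compound mutants and control overlapped.

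**Figure D2:**
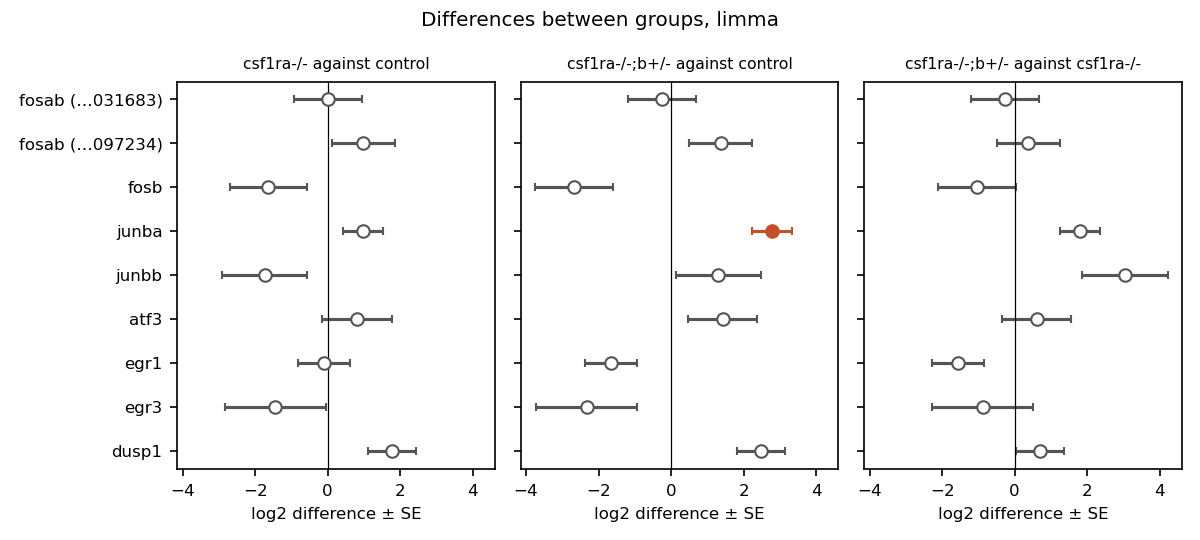
Log2 difference (log2 of signal plus 1, with SE, n = 2 per group) of each member in the 3 comparisons from the limma fit, with the filled point for the one value with an adjusted p under 0.05. In compound mutants against control junba stands at 2.77 and dusp1 at 2.47, while fosb stands at -2.68 and egr3 at -2.33.

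Over the 9 members, 1 passed in compound mutants against control, higher, and 0 lower, where 1.22% of all genes tested passed (0.868% higher and 0.347% lower). The median log2 difference of the members was 1.30, beside -0.16 over all 21316 genes tested, with 5 members above 0 and 4 below. On total reads these medians were 0.62 and -0.70. Relative to all genes the members stood 1.46 higher in the authors' scaling and 1.32 higher on total reads. With at least 50 reads in 2 libraries required, the median over all genes was 0.50, and the members stood 0.80 higher. In the authors' scaling the members' median is the value of junbb, 1.30 ± 1.17. Without compound mutant library 1 the members' median was 0.42, or 0.66 above that of all genes. Groups did not overlap for 7 of the 9 members, 4 higher (junba, junbb, dusp1 and the fosab row ENSDARG00000097234) and 3 lower (fosb, egr1 and egr3), where 58.6% of all genes did not overlap, 25.3% higher and 33.3% lower. Of all genes that passed in this comparison 71.4% were higher, 185 against 74 lower, while on total reads 40.6% were higher, 126 against 184 lower. At an unadjusted limma p under 0.05 there were 4 members (junba, dusp1, fosb and egr1) and 26.8% of all genes. By edgeR 1 member passed, junba, and 1.67% of all genes. By DESeq2 3 passed, junba, dusp1 and fosb, and 17.7% of the genes to which it gave an adjusted p. The same 3 have a false discovery rate under 0.05 in the authors' deposited table, as have 21.0% of its genes.

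In csf1ra-/- against control 0 of the 9 members passed, as did 0.0% of all genes. At an unadjusted limma p under 0.05 there were 1 member, dusp1, and 10.2% of all genes, and by edgeR and DESeq2 0 members passed, where 0.0375% and 1.81% of the genes with an adjusted p did. Of the members 0 have a false discovery rate under 0.05 for this comparison in the authors' deposited table, against 0.75% of its genes. The members' median log2 difference was 0.01, beside -0.03 over all genes, and ran from -0.96 without csf1ra-/- library 1 to 1.02 without csf1ra-/- library 2. Groups did not overlap for 2 members, junba and dusp1, both higher, where 38.8% of all genes did not overlap, 18.6% higher and 20.2% lower. On total reads the groups overlapped for junba.

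Between the mutant groups 0 of the 9 members passed by limma or edgeR and 1, junba, by DESeq2 (adjusted p = 0.0310), where limma passed 0.00938% of all genes, edgeR 0.0844% and DESeq2 8.1%. The authors' deposited table has 7.65% of its genes at a false discovery rate under 0.05 here, junba the 1 member among them. At an unadjusted limma p under 0.05 there were 2 members, junba and junbb, and 12.8% of all genes. The median was 0.38, beside -0.17 over all genes. It turned negative without csf1ra-/- library 2 (-0.30) and without compound mutant library 1 (-0.40). Groups did not overlap for junba and junbb, both higher, where 49.0% of all genes did not overlap, 20.0% higher and 28.9% lower. The 3 comparisons share libraries, so their values for a member are not independent.

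The members also differed between the libraries of a group. In csf1ra-/- all 9 members were higher in the library numbered 1 than in the one numbered 2, where 51.7% of all genes were. In compound mutants all 9 were again higher in the library numbered 1, where 46.2% of all genes were. Both held together for 23.6% of all genes. In control 3 of the 9, the fosab row ENSDARG00000031683, fosb and egr1, were higher in the library numbered 1, where 51.2% of all genes were. On total reads the counts were 9, 9 and 4.

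The median difference between the libraries over the members was 1.74 in csf1ra-/-, 1.2 in compound mutants and -0.71 in control (log2 of signal plus 1, library 1 minus library 2), beside medians of 0.06, 0.00 and 0.04 over all genes. In csf1ra-/- it ran from 0.08, for junba, to 4.22, for egr3. The fosab row ENSDARG00000031683 had 7.93 times, fosb 11.7 times and egr1 3.34 times the signal in that group's library 1. In compound mutants the same egr1 ratio was 3.51, atf3 had 4.75 times the signal in library 1, and junba 1.37 times. The numbers do not mark a shared batch in the labels. Over all genes the deviations of same-numbered libraries correlated at 0.006 to 0.018, which does not bear on a smaller set of genes such as the members. Whether same-numbered libraries shared a batch was not tested.

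**Figure D3:**
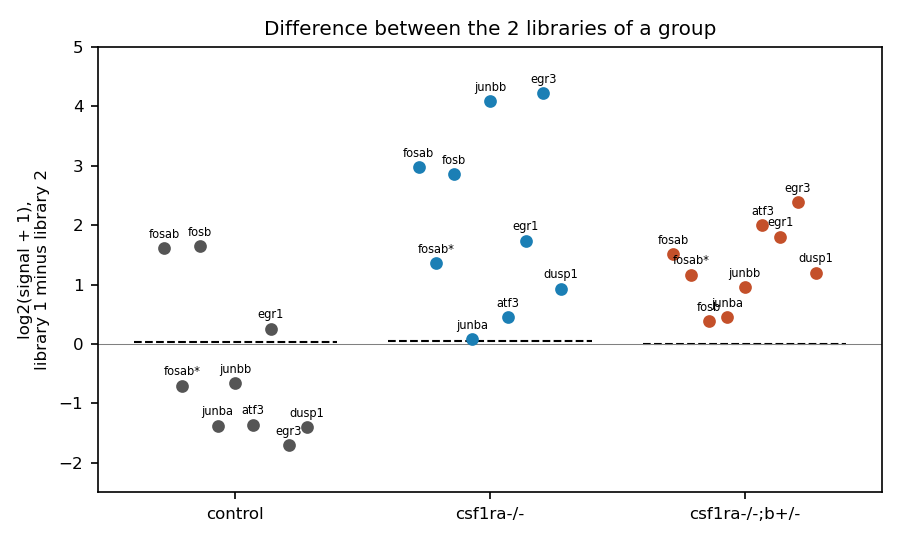
Difference in log2(signal + 1) between the libraries numbered 1 and 2 of each group, with 1 point per member, dashed lines for the median of all genes tested, and an asterisk on the fosab row ENSDARG00000097234. All 9 points lie above 0 in csf1ra-/- and in compound mutants, and 3 of 9 in control.

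Ratios of reads within a library do not depend on how libraries are scaled, and show how the members moved against each other; the pairs below were chosen after their values were seen and were not tested. Reads of junba per read of egr1 were 0.0670 and 0.210 for the controls, 0.141 and 0.448 for the csf1ra-/- libraries and 1.62 and 4.17 for the compound mutants. Both compound mutant libraries were above the other 4, and control and csf1ra-/- overlapped. Reads of dusp1 per read of egr1 were 0.0309 and 0.100 for the controls, 0.157 and 0.274 for the csf1ra-/- libraries and 0.810 and 1.23 for the compound mutants. Here none of the 3 groups overlapped.

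Against the fosab row ENSDARG00000031683, junba had 0.0762 and 0.615 reads per read for the controls, 0.156 and 1.17 for the csf1ra-/- libraries and 1.23 and 2.57 for the compound mutants. The compound mutants were again the highest, by a narrow margin over csf1ra-/- library 2. Reads of fosb per read of junba were 0.667 and 0.0763 for the controls, 0.0962 and 0.00870 for the csf1ra-/- libraries and 0.00382 and 0.00352 for the compound mutants, the lowest of the 6. The compound mutants did not stand apart in every pair: reads of dusp1 per read of the same fosab row were 0.0352 and 0.294 for the controls, 0.173 and 0.717 for the csf1ra-/- libraries and 0.614 and 0.762 for the compound mutants, where the mutant groups overlapped.

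**Figure D4:**
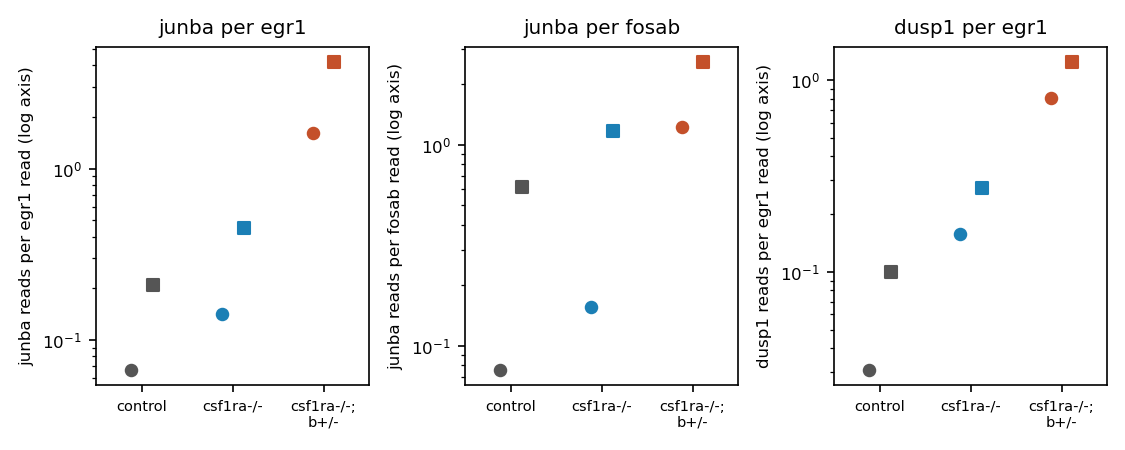
Reads of one member per read of another within each library (log axes), with circles and squares for the libraries numbered 1 and 2 of a group. Both compound mutant libraries lie above the other 4 in each panel, from 1.62 to 4.17 for junba per egr1. The pairs were chosen after their values were seen. For dusp1 per fosab, which is not drawn, the mutant groups overlapped.

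Genes of the same pathway were read from lists around the members, and a gene passes below where its limma adjusted p is under 0.05; calls by the other tools and in the authors' deposited table follow, and genes named only for those were chosen after their values were seen. For the lists below, 26.8% of all genes had an unadjusted limma p under 0.05 in compound mutants against control. In csf1ra-/- against control 10.2% did, and between the mutant groups 12.8%. In that order of comparisons DESeq2 called 17.7%, 1.81% and 8.1% of the genes with an adjusted p. The authors' deposited table calls 21.0%, 0.75% and 7.65% of its genes. Of 9 other AP-1 genes, 1 rose in compound mutants against control and 0 fell, where 1.22% of all genes passed. Their median log2 difference was 1.09. The gene that rose was batf3, a small AP-1 factor known in mice for its role in dendritic cells, at 9.93 and 27.4 for the controls, at 55.0 and 72.5 for the csf1ra-/- libraries and at 155 and 289 for the compound mutants. Its levels did not overlap between any 2 groups, and its difference from control was 3.59 ± 0.62 in compound mutants (log2, SE, n = 2 per group; limma adjusted p = 0.0373) and 1.86 ± 0.62 in csf1ra-/- (limma adjusted p = 0.403). The first passed in 9 of 10 other settings (adjusted p from 1.25e-05 to 0.0504) and in 1 of 6 fits with 1 library left out, that without compound mutant library 1 (limma adjusted p from 0.0310 to 0.209). It was also the 1 gene of this list called by edgeR, by DESeq2 and in the authors' deposited table, all in this comparison. Unlike the members in the mutant groups, batf3 was higher in the library numbered 2 of all 3 groups. Between the mutant groups 0 of the 9 passed, with batf3 at 1.73 and fosaa, a c-Fos paralog, at -1.72 (limma adjusted p = 0.322 and 0.327). The fosaa values rest on few reads, 7 and 0 for the controls, 23 and 14 for the csf1ra-/- libraries and 0 and 1 for the compound mutants. The FOS-related gene fosl2 differed by 2.00 from control in compound mutants, and fosaa by 1.30 in csf1ra-/- (limma adjusted p = 0.150 and 0.524).

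The next list held other EGR genes and the NAB proteins, which bind and repress EGR factors. Of 5 rows 4 were tested and 0 passed by limma or edgeR in any comparison. At an unadjusted limma p under 0.05 there were 2 in compound mutants against control, 1 in csf1ra-/- against control and 0 between the mutant groups. DESeq2 gave an adjusted p to 3 rows in compound mutants against control and to 1 between the mutant groups, and called 0. In csf1ra-/- against control it gave an adjusted p to 0 rows, so it could call no row there. The authors' deposited table calls 3 of the 5 lower in compound mutants against control, egr2b, nab2 and the untested nab1a (false discovery rates 0.0209, 0.0313 and 0.0260), with at most 2 reads in a compound mutant library. In that comparison it calls 21.0% of its genes. All 4 tested rows had a log2 difference below 0 in compound mutants against control, with a median of -1.27, beside -0.16 over all genes. These rows had few reads in every library. Genes with any read were fewer in the compound mutants (18383 and 18047) than in the other libraries (20119 to 21452), so low values there are not particular to this list. The co-repressor nab2 stood at 2.86 and 5.68 for the controls, at 0.117 and 0.784 for the csf1ra-/- libraries and at 0.162 and 0 for the compound mutants. Its differences from control were -2.24 in compound mutants and -1.85 in csf1ra-/- (limma adjusted p = 0.0980 and 0.422). The gene egr2b had 0 reads in both compound mutant libraries and a signal of 2.31 and 2.72 in the controls. Its log2 difference from control was -1.81 in compound mutants and -0.76 in csf1ra-/- (limma adjusted p = 0.177 and 0.791). Between the mutant groups, egr4 and egr2b, each with 0 reads in both compound mutant libraries, were at limma adjusted p = 0.525 and 0.584.

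Of 33 rows of other immediate early genes, 0 passed by limma or edgeR in any comparison, with 11 at an unadjusted limma p under 0.05 in compound mutants against control, 3 in csf1ra-/- against control and 4 between the mutant groups. For compound mutants against control DESeq2 called 5 rows higher (ier5, klf2b, zfp36l2, ier2a and socs3b) and 1 lower (npas4a), and the authors' deposited table lists 8 as higher, these 5 among them, and 3 as lower (npas4a, nr4a2a and klf4). For csf1ra-/- against control DESeq2 called klf2b and zfp36l2 higher, the latter also in the authors' deposited table (false discovery rate 0.0415). Between the mutant groups DESeq2 called ier5 higher and npas4a lower, the latter also in the authors' deposited table (false discovery rate 0.0179). Among them are 2 socs3a rows with nearly the same reads, 2249 and 2253 in control library 1, so that the values of each row are uncertain. Compound mutants had 20 rows above 0 and 13 below against control, with a median of 0.31. The smallest p belonged to ier5, a nuclear immediate early protein, at 37.5 and 51.7 for the controls, at 69.7 and 75.6 for the csf1ra-/- libraries and at 213 and 220 for the compound mutants. Its difference from control was 2.27 ± 0.49 (log2, SE, n = 2 per group; limma adjusted p = 0.0541) and from csf1ra-/- 1.56 ± 0.49 (limma adjusted p = 0.284). The zinc finger gene klf2b stood at 1.09 and 1.98 for the controls, at 24.2 and 11.3 for the csf1ra-/- libraries and at 24.2 and 33.4 for the compound mutants, with both mutant groups above control. Its differences from control were 3.56 in compound mutants and 2.82 in csf1ra-/- (limma adjusted p = 0.0568 and 0.366). The mRNA decay factor zfp36l2 was 3.08 higher in csf1ra-/- than in control (limma adjusted p = 0.359). The stress sensor gadd45bb was 2.75 higher in compound mutants than in csf1ra-/- (limma adjusted p = 0.275).

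Of 12 other dual specificity phosphatases and feedback inhibitors of ERK, 0 passed by limma or edgeR in any comparison, with 2 at an unadjusted limma p under 0.05 in each comparison with compound mutants and 0 in csf1ra-/- against control. DESeq2 and the authors' deposited table both called dusp5 higher in compound mutants than in control (authors' false discovery rate 0.0118) and dusp10 higher in compound mutants than in csf1ra-/- (0.0297), where both csf1ra-/- libraries had 0 reads of dusp10. For this list the median in compound mutants against control was 0.03. The ERK phosphatase gene dusp5 stood at 12.0 and 27.2 for the controls, at 69.5 and 12.2 for the csf1ra-/- libraries and at 97.0 and 159 for the compound mutants (2.71 from control and 2.03 from csf1ra-/-; limma adjusted p = 0.0947 and 0.352). The Sprouty gene spry4 had log2 differences of -2.12 from control and -2.87 from csf1ra-/- in compound mutants (limma adjusted p = 0.183 and 0.299). In csf1ra-/- against control the smallest p were those of dusp10 (-1.70) and spred2a (1.01), with limma adjusted p = 0.638 and 0.694.

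Of 24 upstream kinases and constitutive factors, 0 passed by limma or edgeR in any comparison, with 3 at an unadjusted limma p under 0.05 in compound mutants against control, 1 in csf1ra-/- against control and 2 between the mutant groups. The shares of all genes at that p were 26.8%, 10.2% and 12.8%. In compound mutants against control DESeq2 called 1 lower, mrtfbb, and the authors' deposited table lists 2 as lower, mrtfbb and srfb (false discovery rates 0.0385 and 0.0467). The list's median in compound mutants against control was -0.17, beside -0.16 over all genes. The smallest p there were those of mrtfbb (-2.71), a co-activator of serum response factor, and elk3 (1.54), an ETS factor (limma adjusted p = 0.0929 and 0.149). The kinase gene rps6ka3b was 1.28 higher in csf1ra-/- than in control (limma adjusted p = 0.526), and map2k2b had a difference of -1.99 in compound mutants from csf1ra-/- (limma adjusted p = 0.371).

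Heat shock genes, another group known to rise with tissue handling, had 15 of 16 rows tested. Of these, 0 passed by limma, edgeR or DESeq2 in any comparison. At an unadjusted limma p under 0.05 there was 1 in csf1ra-/- against control and 0 in the other comparisons. Their median was 0.68 in compound mutants and 0.55 in csf1ra-/-, both against control, and -0.51 between the mutant groups. Over all genes tested these medians were -0.16, -0.03 and -0.17. With at least 50 reads in 2 libraries required, they were 0.50, 0.24 and 0.19. The chaperone gene hspa8 was 1.17 and its co-chaperone dnajb1b 2.20 higher in compound mutants than in control (limma adjusted p = 0.201 and 0.194). In csf1ra-/- against control the smallest p were those of hsp90ab1 (1.36) and hsp70.1 (1.5), with limma adjusted p = 0.445 and 0.666. Between the mutant groups they were those of hsf1 (-1.48) and bag3 (-1.10), with limma adjusted p = 0.501 and 0.548. The authors' deposited table calls bag3, with 0 reads in both compound mutant libraries, lower there than in control and in csf1ra-/- (false discovery rates 0.0228 and 0.0480). Of the 15, 12 were higher in compound mutant library 1 than in library 2, but 6 in csf1ra-/- library 1, and 6 in both at once, where the members had 9 of 9. Of the other immediate early genes 24 of 33 rows were higher in library 1 of csf1ra-/-, 25 in library 1 of the compound mutants and 19 in both at once. In both at once were also 5 of the 9 other AP-1 genes, 0 of the 4 EGR and NAB genes, 3 of the 12 phosphatases and ERK inhibitors and 10 of the 24 upstream genes, where 23.6% of all genes were.

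**Figure D5:**
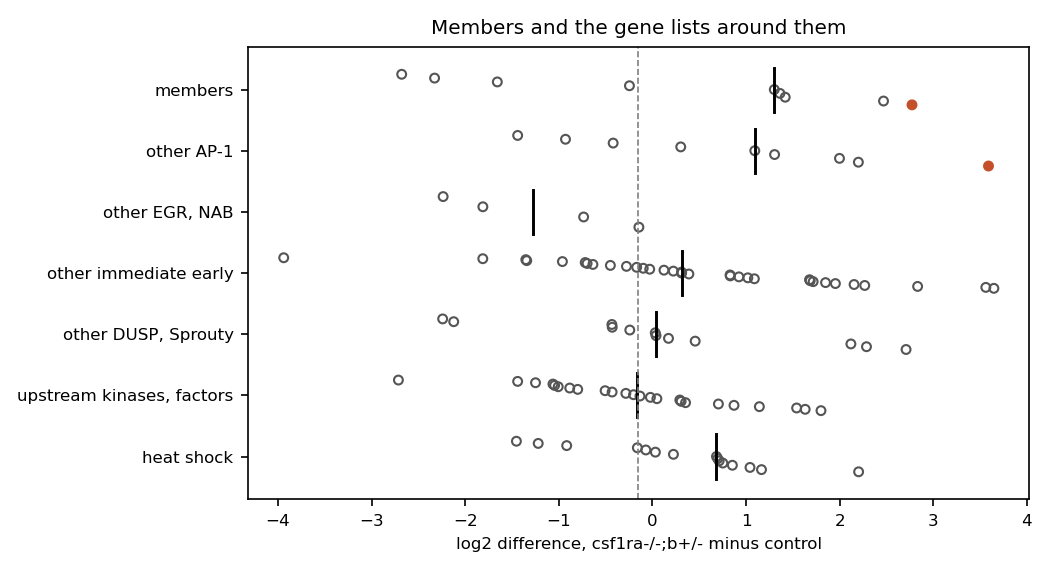
Log2 difference in compound mutants against control of each tested gene of the members and of 6 lists around them, with filled points for genes with a limma adjusted p under 0.05, black bars for list medians and the dashed line for the median of all genes, -0.16. Filled points are junba (2.77) and batf3 (3.59), and the medians are 1.30 for the members and 0.03 to 1.09 for the lists with positive medians. The medians are negative for the EGR and NAB list (-1.27) and for the upstream kinases and factors (-0.17).

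Markers of further cell types gave summed signals of 774 to 2490 units for radial glia and ependyma, 192 to 429 for endothelium and mural cells, 22.0 to 143 for T and natural killer cells, and 4.37 to 25.4 for red cells and thrombocytes. Single genes made up most of some sums. In radial glia and ependyma glula gave 603 to 2392 units, and gfap 0.162 to 8.31. Highest in both compound mutant libraries were glulb, fabp7a and cx43, while cyp19a1b was lowest in both. The remaining markers of this list did neither. For glulb the values were 3.54 and 8.64 for the controls, 31.1 and 31.4 for the csf1ra-/- libraries and 286 and 315 for the compound mutants. In endothelium and mural cells pecam1 gave 149 to 407, and cdh5 at most 4.79. In compound mutant library 2 cd3eap gave 32.9 of the 39.9 units of the T and natural killer cell list, and 5 of its 8 genes were at 0 reads. Whether cd3eap is particular to these cells was not tested, so this sum cannot be read as a measure of them. The B lymphocyte sum was 151 and 296 for the controls, 335 and 699.9 for the csf1ra-/- libraries and 382 and 708 for the compound mutants, so that all 4 mutant libraries were above both controls. Single markers differed in this. The genes ighm, ighz, cd37 and, by a narrow margin, pax5 had this order, while igic1s1, cd22, cd79a and cd79b did not. The gene cd22 was highest in control library 2, at 82.2, and lowest in csf1ra-/- library 2, at 9.41. The neutrophil sum was lowest in both compound mutant libraries, at 38.2 and 29.7, against 43.9 to 128 in the others. Much of it was csf3r, at 44.2 and 87.4 for the controls, 78.5 and 17.9 for csf1ra-/- and 25.8 and 7.92 for the compound mutants. Against control the marker npsn went the other way, at 4.22 and 0.617 for the controls, 31.7 and 11.8 for csf1ra-/- and 5.58 and 18.5 for the compound mutants. The part of these cells in the members' values was not tested. The genes whose profile over the 6 libraries was most like the mean profile of the members were sought among 4347 genes with a mean signal of at least 20. They were stxbp3, ints6, atp6ap1b, aplp2 and dbpb, with Pearson's r from 0.957 to 0.963 over 6 libraries. They were picked as the highest of many, and the likeness is a description. The circadian factor gene dbpb, for example, stood at 31.8 and 76.7 for the controls, at 88.5 and 17.3 for the csf1ra-/- libraries and at 107 and 25.5 for the compound mutants, with library 1 the higher in both mutant groups, as for the members.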

How the data were processed

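RNA of 6 libraries, 2 per group, was measured by sequencing of amplified cDNA, single reads, per the labels' protocols. HISAT2, edgeR and GRCz10 are named in the submitters' processing notes. Tool versions, the annotation and the counting options were not given in the sources used here. In all, the deposited table holds 21860 genes, and its signal, which the authors head CPM, is reads over an effective library size. All values (100.0% in each library) were whole multiples of the smallest within a tolerance of 0.001, so whole reads were recovered. The log2 fold changes and false discovery rates (p-value columns) that are quoted are the authors' deposited ones. Another 19 columns were not used.

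The test was limma (3.58.1, R 4.3.3) with trend and robust estimation after log2 transformation with a pseudocount of 1. It covered the 21316 genes that reached 1 unit of signal in 2 or more libraries, and had 3 group means without covariates. A fold on this scale understates the change of low genes. The Benjamini-Hochberg adjustment ran over all these genes, with a threshold of 0.05. The recovered reads were also tested with edgeR 4.0.16, which called 8, 357 and 18 genes in the 3 comparisons, and with DESeq2 1.42.0. The tests were also run on simulated counts, with planted differences larger than those of the members in the main fit. The same dispersion was set for every gene, without shifts between the libraries of a group. The simulation therefore does not cover the spread seen among the members. The members and lists were chosen with earlier results of these data known.

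Named genes were all members, up to 2 genes with the smallest p per list and comparison, and the 5 genes with the highest correlation to the members' mean profile, clone-style names left out. Of the genes so named, 1 is not reported here. List genes were matched by symbol or, where it was absent, by the gene name reference. The title numbers were not taken as pairs, since no label ties them to a batch. The reference annotation is of another build, so no coordinates are given, and sequences were not used here.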

Additional observations from a re-analysis of the deposited data

How the results depend on the processing

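With 2 libraries per group, few calls can be made and 1 library can decide them. Of 432 values for single members under 16 alternatives, 401 kept their direction and side of the threshold, 9 lost a call (all junba in compound mutants against control), 4 gained one and 18 changed sign. Those that changed sign with another scaling were the fosab row ENSDARG00000031683 in csf1ra-/- against control, at -0.51 on total reads and -0.16 with median-ratio scaling. With 1 library left out, that row ran from -1.48 to 1.5, egr1 from -0.96 to 0.77, junbb from -3.78 to 0.31 and egr3 from -3.55 to 0.67 in csf1ra-/- against control. In compound mutants against control the same fosab row ran from -1.05 to 0.56. Against csf1ra-/-, it ran from -1.75 to 1.23, the row ENSDARG00000097234 from -0.30 to 1.05, fosb from -2.48 to 0.38, egr3 from -3.00 to 1.23 and atf3 from -0.40 to 1.60. The cause was not tested.

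Members that passed in compound mutants against control numbered 1, and 0 with a pseudocount of 0.25, with no filter, without robust estimation or with any 1 library left out (0 to 0). They numbered 2 with at least 50 reads and 3 by DESeq2, which also passed 1 against csf1ra-/-. With 1 library left out, the median of the members ran from -0.96 to 1.02 in csf1ra-/- against control and from 0.42 to 1.78 in compound mutants against control.

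Genes that passed in csf1ra-/- against control numbered 0, and 3 with a pseudocount of 4, 13 with at least 50 reads, 7 on total reads, 5 with median-ratio scaling, 8 by edgeR, 259 by DESeq2 and 0 to 12 with 1 library left out. In compound mutants against control they numbered 259, and 95 with a pseudocount of 0.25, 872 with at least 50 reads, 3618 by DESeq2 and 0 to 137 with 1 library left out, 137 without compound mutant library 1 and 27 without library 2. Against csf1ra-/- they numbered 2, and 4 with a pseudocount of 4, 48 with at least 50 reads, 39 on total reads, 5 with median-ratio scaling, 18 by edgeR, 1459 by DESeq2, 5 without robust estimation and 0 to 8 with 1 library left out. A fit on 5 libraries has fewer degrees of freedom.

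With the title number as a replicate block the counts were 11, 576 and 34 genes in the order of the comparisons, and 0, 1 and 0 members. No label ties the number to a batch. Over all genes the deviations of same-numbered libraries correlated at 0.006, 0.018 and 0.012. These values cover all genes at once, and a batch shared by a smaller set of genes was not tested.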

Other observations

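The values of 4 further immediate early genes are given here, chosen after they were seen. The inhibitor of NF-kB nfkbiab stood at 88.8 and 366 units of signal for the controls, at 229 and 224 for the csf1ra-/- libraries and at 905 and 472 for the compound mutants. The cytokine feedback gene socs3a (ENSDARG00000025428) stood at 306 and 686 for the controls, at 631 and 232 for the csf1ra-/- libraries and at 1301 and 249 for the compound mutants, so that 1 compound mutant library was the highest of the 6 and the other among the lowest. The transcription factor gene cebpb stood at 207 and 165 for the controls, at 261 and 57.6 for the csf1ra-/- libraries and at 460 and 128 for the compound mutants. For npas4a, an immediate early gene best known from neurons, the 3 groups did not overlap, with values of 18.8 and 11.9 for the controls, 9.94 and 0.470 for the csf1ra-/- libraries and 0.0809 and 0 for the compound mutants. None of these passed the limma test over all genes, while DESeq2 and the authors' deposited table called npas4a lower in compound mutants than in control (authors' false discovery rate 0.00158).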
